A study of Rattus norvegicus with 6 samples.

Results

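The genes described here are the transcriptional coactivators YAP and TAZ, encoded by Yap1 and Wwtr1, the 4 TEAD DNA-binding factors Tead1 to Tead4, and 4 of their direct target genes, Ankrd1, Amotl2, Lats2 and Fhl2. They were chosen by gene symbol, with earlier results of these data known, and all 10 were among the 22085 genes of the deposited table. The RNA came from rat amniotic fluid cells taken by hysterectomy on embryonic day 18.5. One group came from control pregnancies and the other from a rat model of preeclampsia, in which the mother's blood pressure rises during pregnancy. Fluid cells were pelleted, cultured with fetal bovine serum and harvested at passage 4, with 3 libraries per group. How the model was made, the rat strain, and how many dams or fetuses each library holds are not given in the sources used here. Every p-value therefore measures the spread between these libraries, which may be technical.

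YAP and TAZ have no DNA-binding domain of their own and act on genes by binding TEAD factors. The kinases LATS1 and LATS2, at the end of the Hippo cascade, phosphorylate both coactivators, which are then held in the cytoplasm and degraded. In stromal cells on a stiff surface, tension in the actin cytoskeleton is known to keep YAP and TAZ in the nucleus. This control acts largely on the proteins, so messenger RNA of Yap1 or Wwtr1 is not a measure of their activity, while target genes are the usual readout.

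Total counts per library ran from 48402185 to 59193961. Messenger RNAs of the mesenchymal marker list were abundant in every library, its 8 genes summing to between 5103 and 5893 FPKM (fragments per kilobase of transcript and per unit of library depth) in the control group and between 5190 and 7731 in the preeclampsia group. Col1a1 and Cxcl12 had the highest FPKM of them, although Vim had more counts than Cxcl12 in every library. The libraries differed in other ways. The 8 macrophage and leukocyte genes summed to 18.5 FPKM in control library 3 and 20.5 in preeclampsia library 1, and to between 90.8 and 295.6 in the other 4. Laptm5 and Lyz2 had the highest FPKM of them, but Cd68 had more counts than either in every library. The 10 genes of the G2 and M phases summed to 393 FPKM in preeclampsia library 1 and to between 80.4 and 194.5 in the other 5. Cenpf and Mki67 had the highest FPKM of them, although Mki67 had more counts than Cenpf in every library. FPKM divides counts by transcript length, so all such sums, and which markers lead them, rest on those lengths. The 5 endothelial genes, led by Kdr and Cd34, summed to at most 4.78 FPKM, with Pecam1, Tie1 and Cd34 listed at 0 in some libraries.

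Fhl2 was the member that stood furthest apart between the groups, with all 3 preeclampsia libraries below all 3 control libraries. Yap1 was lower by a smaller step, also without overlap, and the 4 TEAD genes had overlapping values in both groups. Ankrd1 varied far more between libraries than between groups. None of the 10 genes was called by edgeR's quasi-likelihood test at a Benjamini-Hochberg adjusted p under 0.05, where 0 of 15776 tested genes were called (0%) and the smallest adjusted p was 0.228. At an unadjusted p under 0.05 there were 1450 genes (9.19%) and 2 of the 10 members, Yap1 and Fhl2, both in the lower direction, in which the background was 5.06% of genes. DESeq2 called 368 of the 13897 genes to which it gave an adjusted p (2.65%), and 1 member, Fhl2, which was lower (1.48% of genes were called in that direction). limma on log2(FPKM + 1), with its own filter, called 0 of 11907 genes and 0 members. Of the same 11907 genes, 1138 had an unadjusted p under 0.05, as had 2 members. All 10 members passed the filter on low counts. Fitted fold changes were below 1 in 9 members, with a median log2 value of -0.19, where 7625 of all tested genes (48.3%) were lower and their median was 0.01.

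**Figure D1:**
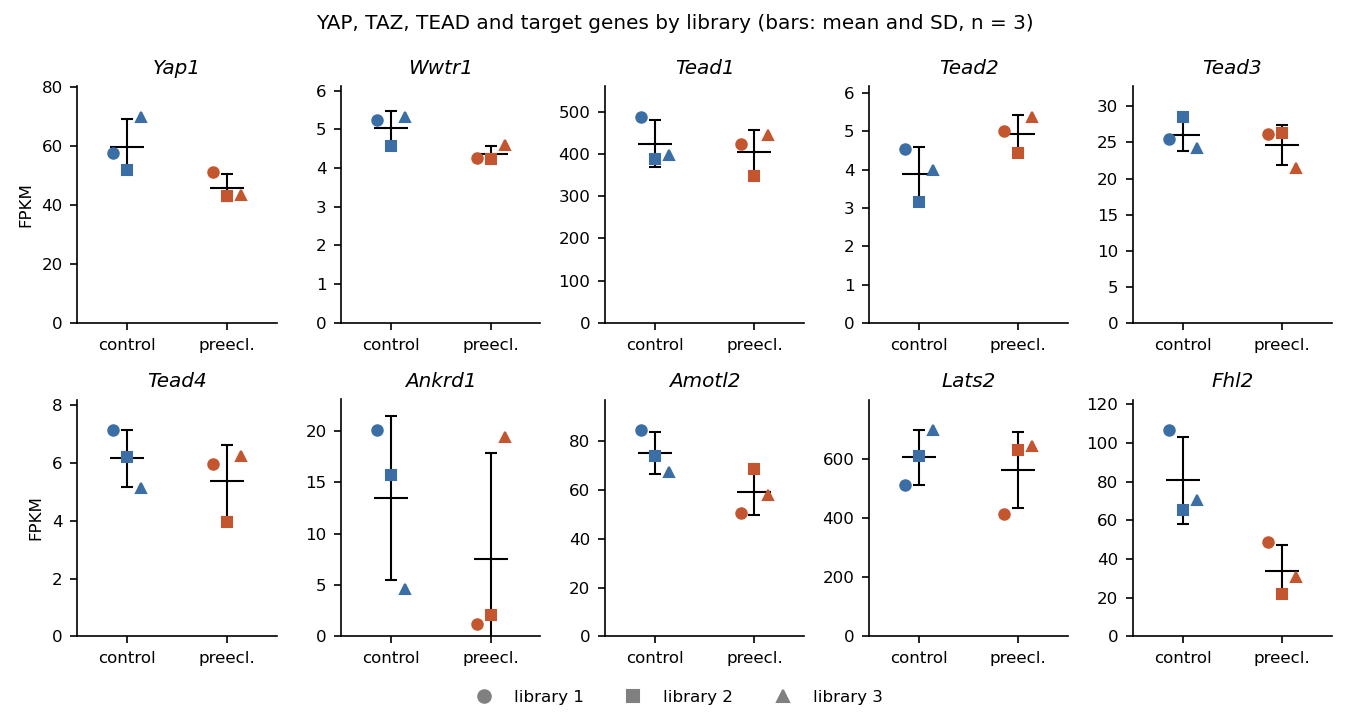
FPKM (vertical axis, from 0, scaled per gene) of the 10 genes in each library, with control in blue and preeclampsia in orange; bars show the mean and SD of 3 libraries, and for Ankrd1 in preeclampsia the SD reaches below 0. Fhl2 and Yap1 do not overlap between the groups, while Ankrd1 spans 1.21 to 20.1 FPKM across both.

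Promoter windows are shown for Fhl2, Yap1 and Amotl2, since Fhl2 and Yap1 are the members without overlap and Amotl2 is a target that holds the same TEAD letters. They are RefSeq sequences of the GRCr8 build, from 250 bases before to 50 bases after an annotated start, and 5 of the 10 members (Yap1, Wwtr1, Tead3, Amotl2 and Fhl2) matched the table, Fhl2 with 2 starts 31214 bases apart. Capitals mark GGAATG, the core bound by TEAD factors, searched on both strands and so also read as CATTCC, and the CArG box, bound by serum response factor, an actin-controlled activator that shares many targets with YAP. No window of a member held the AP-1 motif TGANTCA, and no matches overlapped. All sequences run 5′ to 3′ on the strand of the gene.
Fhl2, upstream start, chr9:52954491-52954790, minus strand: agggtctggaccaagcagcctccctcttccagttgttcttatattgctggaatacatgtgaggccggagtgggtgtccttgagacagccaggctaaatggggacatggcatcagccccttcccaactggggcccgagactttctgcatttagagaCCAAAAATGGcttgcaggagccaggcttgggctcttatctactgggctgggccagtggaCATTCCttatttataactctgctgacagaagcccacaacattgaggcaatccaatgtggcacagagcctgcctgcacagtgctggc
Fhl2, inner start, chr9:52923277-52923576, minus strand: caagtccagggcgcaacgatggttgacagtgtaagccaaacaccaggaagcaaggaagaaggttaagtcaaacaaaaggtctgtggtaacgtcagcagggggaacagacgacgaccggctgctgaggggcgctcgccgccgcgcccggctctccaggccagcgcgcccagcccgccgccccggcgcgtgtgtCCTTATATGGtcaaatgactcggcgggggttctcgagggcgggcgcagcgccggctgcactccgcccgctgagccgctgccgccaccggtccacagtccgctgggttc
Amotl2, chr8:112182376-112182675, plus strand: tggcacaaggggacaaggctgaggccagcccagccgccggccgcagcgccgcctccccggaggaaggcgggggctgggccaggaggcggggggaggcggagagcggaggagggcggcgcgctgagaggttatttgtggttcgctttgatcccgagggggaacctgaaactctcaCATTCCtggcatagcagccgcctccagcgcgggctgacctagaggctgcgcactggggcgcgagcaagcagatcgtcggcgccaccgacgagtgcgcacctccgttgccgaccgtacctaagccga
Yap1, chr8:13451388-13451687, minus strand: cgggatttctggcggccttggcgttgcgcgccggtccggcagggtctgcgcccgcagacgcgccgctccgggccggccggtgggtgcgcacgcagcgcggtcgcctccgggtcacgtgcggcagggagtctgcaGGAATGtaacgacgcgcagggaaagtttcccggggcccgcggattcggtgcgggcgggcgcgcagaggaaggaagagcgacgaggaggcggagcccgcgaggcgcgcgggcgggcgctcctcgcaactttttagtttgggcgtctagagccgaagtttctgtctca

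At the upstream Fhl2 start, the CATTCC match began 36 bases before the start and a CArG box 95 bases before it. The inner Fhl2 start had a CArG box 58 bases before it and no TEAD core. In Amotl2 the CATTCC match lay 76 bases before the start, and in Yap1 the GGAATG match lay 116 bases before it. Of all 33469 promoter windows of this length, 14.2% held the TEAD core, 1.64% a CArG box and 7.33% the AP-1 motif. The windows of Wwtr1 and Tead3 held none of the 3 motifs. Which Fhl2 start was used in these cells was not measured, and a match describes letters only.

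Yap1 lies on chromosome 8 (5095705 to 5166808, minus strand, in the coordinates of the deposited table). Libraries 1 to 3 of the control group held 57.7, 51.8 and 69.8 FPKM, and libraries 1 to 3 of the preeclampsia group 51.2, 42.9 and 43.4 FPKM, the order kept for every gene. The groups did not overlap, but the highest preeclampsia library lay just under the lowest control library. The means were 59.8 ± 9.18 and 45.9 ± 4.68 FPKM (SD, n = 3 each), and the log2 fold change was -0.36 (SE 0.14, edgeR adjusted p = 0.517). The 95% interval of the fold ran from 0.612 to 0.985. This rested on single libraries: the log2 fold change was -0.256 without control library 3 (edgeR unadjusted p = 0.136). Without control library 2 it was -0.459 (edgeR unadjusted p = 0.0222), and with the replicate number as a block -0.357 (edgeR unadjusted p = 0.0703). Groups that did not overlap in CPM (counts scaled to library size) were found in 2 of the 10 members, both lower, against 8.3% of all tested genes in that direction.

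Wwtr1, which encodes TAZ, lies on chromosome 2 (141651159 to 141766919, minus strand). It stood at 5.25, 4.56 and 5.32 FPKM in the control libraries and at 4.26, 4.24 and 4.60 in the preeclampsia libraries. The groups overlapped by 1 pair, control library 2 lying just under preeclampsia library 3. The means were 5.04 ± 0.420 and 4.37 ± 0.202 FPKM, with a log2 fold change of -0.19 (SE 0.12, edgeR adjusted p = 0.712), or -0.12 without control library 1. Of the FPKM of the pair, Yap1 made up 92.2 ± 0.667% in control and 91.2 ± 0.982% in preeclampsia libraries. As a share of counts, which are not divided by length, Yap1 made up 86.0 ± 1.11% and 84.5 ± 1.61%.

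Among the TEAD genes, whose products carry YAP and TAZ to DNA, Tead1 had the highest FPKM and the highest counts in every library. It stood at 488, 387 and 397 FPKM in the control libraries and at 424, 348 and 445.5 in the preeclampsia libraries, and the groups overlapped throughout. Its share of summed TEAD FPKM was 92.1 ± 0.931% in control and 92.0 ± 1.09% in preeclampsia libraries, and its share of summed TEAD counts 82.4 ± 1.33% and 81.5 ± 1.72%. The FPKM share rests on the transcript lengths described below, and counts are not divided by length, so neither share is a sure measure of abundance. The log2 fold change of Tead1 was -0.05 (SE 0.17, edgeR adjusted p = 0.952), with a 95% interval of the fold from 0.729 to 1.28. Its sign changed without control library 1 (0.10) and without preeclampsia library 2 (0.03), and leaving out any of control libraries 2 and 3 and preeclampsia library 3 gave between -0.128 and -0.11. Tead1 lies on chromosome 1 (166791900 to 167010591, plus strand).

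Tead2 was the 1 member with a fitted fold change above 1. It stood at 4.53, 3.15 and 4.00 FPKM in the control libraries and at 5.01, 4.43 and 5.38 in the preeclampsia libraries, with preeclampsia library 2 just below control library 1. The means were 3.89 ± 0.696 and 4.94 ± 0.479 FPKM (log2 fold change 0.36, SE 0.18, edgeR adjusted p = 0.627), and the log2 fold change was 0.22 without control library 2. Its share of summed TEAD FPKM was between 0.74% and 0.93% in the control libraries and between 1.09% and 1.16% in the preeclampsia libraries, so that this share did not overlap. The share was computed after the choice of these genes and was not tested. Tead2 lies on chromosome 1 (95702366 to 95719186, plus strand).

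Tead3, on chromosome 20 (6392053 to 6411446, minus strand), stood at 25.5, 28.5 and 24.2 FPKM in the control libraries and at 26.1, 26.4 and 21.4 in the preeclampsia libraries. Its log2 fold change was -0.06 (SE 0.13, edgeR adjusted p = 0.921), with a 95% interval of the fold from 0.767 to 1.19. Leaving out control library 2 brought it to 0.001, and leaving out preeclampsia library 3 to 0.03. It was -0.125 without control library 3 and -0.138 without preeclampsia library 2. Tead4, on chromosome 4 (161474122 to 161572837, minus strand), stood at 7.12, 6.20 and 5.14 FPKM in the control libraries and at 5.96, 3.95 and 6.22 in the preeclampsia libraries. The groups overlapped, and the log2 fold change of Tead4 was -0.19 (SE 0.23, edgeR adjusted p = 0.864). It was -0.02 without preeclampsia library 2 and -0.03 without control library 1, but -0.31 without control library 3 or without preeclampsia library 3. The interval of its fold, from 0.599 to 1.29, is the widest of the 4 TEAD genes on the log2 scale.

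**Figure D2:**
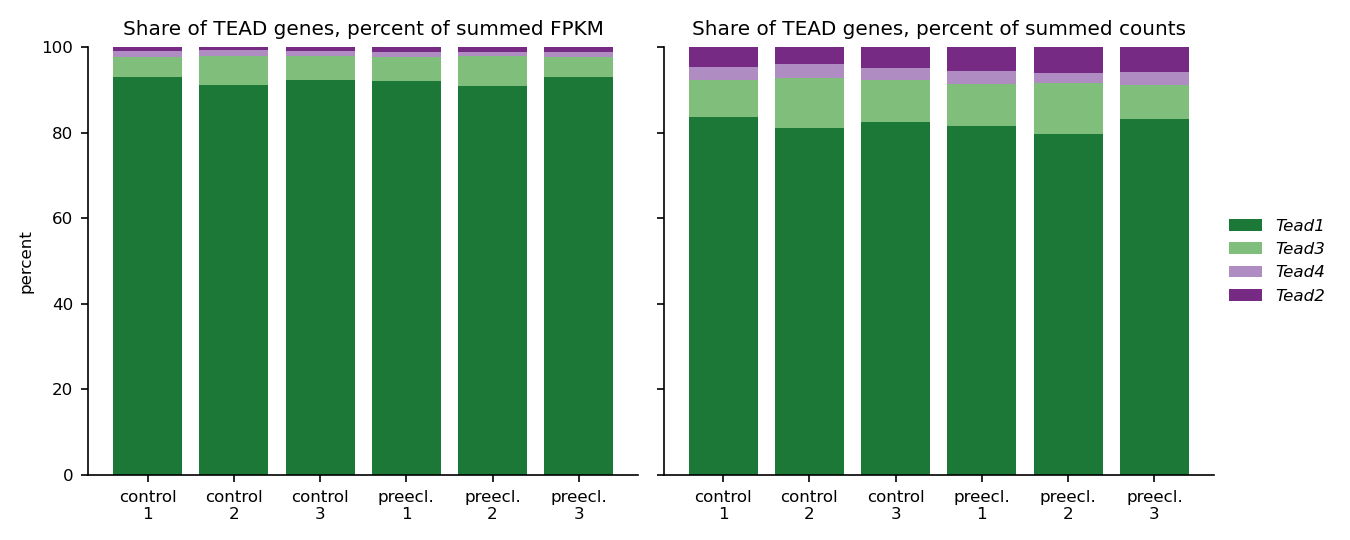
Share of each TEAD gene (percent, stacked bars from 0 to 100) in the summed FPKM of the 4 genes, left, and in their summed counts, right, for each of the 6 libraries. Tead1 makes up between 90.9% and 93.1% by FPKM and between 79.8% and 83.7% by counts.

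The levels of different genes rest on the transcript lengths behind the deposited FPKM, which can be read back from the counts. The length implied for each gene was the same in every library to within 0.61%, so comparisons of 1 gene between libraries do not depend on it. It was 509 bases for Lats2, 1425 for Tead1, 2041 for Fhl2, 6470 for Yap1 and 12337 for Wwtr1. That of Lats2 is shorter than the coding sequence of this large kinase, so that its FPKM stands too high against other genes. In 448 of the 9119 genes with over 2 FPKM in every library (4.91%), the implied length was longer than the span of the gene in the same table.

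On the FPKM scale the mean levels over the 6 libraries ran from Lats2 (583) and Tead1 (415) through Amotl2 (67.0), Fhl2 (57.3), Yap1 (52.8), Tead3 (25.4) and Ankrd1 (10.5) to Tead4 (5.76), Wwtr1 (4.71) and Tead2 (4.42). Lats2 and Tead1 overlapped across libraries, as did Amotl2, Fhl2 and Yap1. Tead4, Wwtr1 and Tead2 overlapped as well, and the range of Ankrd1 covered all 3. The place of Lats2 in this order rests on its implied length, and the places of the other genes rest on theirs. For Tead2 it was 8411 bases in a gene span of 16821, and for Amotl2 7915 bases in a span of 15794.

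Fhl2, a protein of LIM domains that binds actin-linked adhesion proteins and transcription factors, lies on chromosome 9 (45388979 to 45462530, minus strand). In the control libraries it held 106.5, 65.4 and 70.4 FPKM, or 10781, 6906 and 7406 counts. In the preeclampsia libraries it held 48.7, 21.7 and 30.9 FPKM, or 5161, 2632 and 3061 counts. Every preeclampsia library lay below every control library, with preeclampsia library 1 nearest to the control group. The means were 80.8 ± 22.4 and 33.8 ± 13.7 FPKM. The fitted log2 fold change was -1.26 (SE 0.34), and the fold was 0.417 with a 95% interval from 0.238 to 0.731.

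Fhl2 was not called by edgeR (adjusted p = 0.444) and was called by DESeq2 (log2 fold change -1.25, adjusted p = 0.028). Over its 15 alternatives the adjusted p ran from 0.028 to 0.783, and the log2 fold change stayed negative, between -1.69 and -0.97. Without control library 1, its highest library, it was -0.97. Markers of other cells had the following values beside it. The 5 smooth muscle markers, led by Acta2 and Tagln, summed in FPKM to 2219, 640.5 and 1274 for control and to 864.5, 608.9 and 596.9 for preeclampsia libraries, and 5 of 5 had a fitted fold below 1. These sums overlapped between the groups, and none of the 5 markers was at 0. edgeR called 0 of them, while DESeq2, which also called Fhl2, called Actg2 (adjusted p = 0.000313, without overlap) and Myh11 (0.0106, with overlap) lower. Of the epithelial genes, Krt8 and Krt18 were the highest; the 6 markers summed in FPKM to 3.93, 55.0 and 12.8 for control and to 0.500, 1.58 and 1.57 for preeclampsia libraries, without overlap. DESeq2 called Krt8 (adjusted p = 0.00818, with overlap) and Krt18 (0.000324, without overlap) lower, and edgeR called neither. Krt8 was at 37.4 FPKM in control library 2 but at 1.12 in control library 1. The epithelial marker Epcam was listed at 0 in 5 of 6 libraries, Cdh1 in 2, and Krt19 was listed at 0 in 4 libraries. The 4 mesothelial markers, led by Msln and Wt1, summed to between 2.76 and 13.8 FPKM in the control and between 15.7 and 29.5 in the preeclampsia group, also without overlap. Fitted folds were below 1 in 3 of these 4, and Msln was above 1, called by DESeq2 (adjusted p = 7.9e-22) and not by edgeR (0.228). The part of these markers in the Fhl2 result was not tested. In bulk RNA, fewer cells of a type and less RNA per cell cannot be told apart.

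Amotl2, an angiomotin family scaffold that binds YAP and is itself induced by it, lies on chromosome 8 (103303368 to 103319161, plus strand). It stood at 84.3, 73.8 and 67.4 FPKM in the control libraries and at 50.4, 68.6 and 57.8 in the preeclampsia libraries. Only preeclampsia library 2 reached into the control range. The means were 75.2 ± 8.54 and 58.9 ± 9.14 FPKM (log2 fold change -0.33, SE 0.19, edgeR adjusted p = 0.677), and the interval of the fold ran from 0.579 to 1.09. Without control library 1 the log2 fold change was -0.20, and without preeclampsia library 1 -0.21.

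Lats2, the Hippo kinase that acts back on YAP as an induced inhibitor, lies on chromosome 15 (31825068 to 31877193, minus strand). It stood at 12854, 16046 and 18223 counts in the control libraries, or 509, 609 and 695 FPKM. In the preeclampsia libraries it stood at 10909, 19023 and 15834 counts, or 412, 629.8 and 642 FPKM. Preeclampsia library 1 was the lowest of all 6, and the other 2 preeclampsia libraries lay within the control range in FPKM and in CPM. Preeclampsia library 2 held more counts than any control library, but it also had the highest total count. The log2 fold change of Lats2 was -0.07 (SE 0.22, edgeR adjusted p = 0.943), and it was 0.12 without preeclampsia library 1 and 0.02 without control library 3. It lay between -0.186 and -0.155 without control library 1, preeclampsia library 2 or preeclampsia library 3.

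Ankrd1, an ankyrin repeat protein of the nucleus and of the muscle sarcomere, lies on chromosome 1 (233815851 to 233834891, minus strand). It stood at 20.1, 15.7 and 4.57 FPKM in the control libraries and at 1.21, 2.07 and 19.4 in the preeclampsia libraries. Control libraries 1 and 2 and preeclampsia library 3 were high, and the remaining 3 were low, so that both groups held both levels. The highest library was 16.6 times the lowest, against 4.90 times for Fhl2 and at most 1.80 times for the other 8 members. The log2 fold change was -0.82 (SE 1.11, edgeR adjusted p = 0.873), with a 95% interval of the fold from 0.0882 to 3.64. Its size moved with most single libraries. Without preeclampsia library 3 the log2 fold change was -3.02 (edgeR adjusted p = 0.728) and without control library 3 it was -1.24, while it was -0.37 without control library 1, -0.31 without preeclampsia library 1 and -0.375 without preeclampsia library 2. By limma it was -1.28 on log2(FPKM + 1) and -1.58 on log2(FPKM + 0.1). With a low level in 2 preeclampsia libraries and the high level in the third, no difference between the groups was detectable.

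Likeness of pattern was measured as the root mean square difference in log2 CPM, centred on each gene's mean, over the 6 libraries and among 7367 named genes with a mean of at least 5 FPKM. It was computed for the 2 members with the widest range. With so many candidates and 6 libraries, close neighbours are always found, so these are descriptions. The difference between the groups was left in, so a neighbour's group difference follows largely from that of the member and is no separate result. Nearest to Fhl2 were Nexn, which encodes the actin-binding protein nexilin (difference 0.191), Itga3, a laminin-binding integrin subunit (0.192), and Svil, which encodes the actin- and myosin-binding protein supervillin (0.210). Nexn stood at 23.2, 10.9 and 14.1 FPKM in the control and at 11.4, 5.32 and 5.73 in the preeclampsia libraries. Itga3 stood at 58.4, 53.9 and 47.5 FPKM and at 32.4, 12.6 and 18.7. Svil stood at 276, 150 and 144 FPKM and at 148.5, 66.4 and 79.0. In Itga3 the groups did not overlap, while for Nexn and Svil preeclampsia library 1 reached into the control range, and the edgeR adjusted p of the 3 lay between 0.433 and 0.541. DESeq2 called Itga3 (adjusted p = 0.0125).

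Nearest to Ankrd1, at larger distances, were Olr1, a receptor for oxidised lipoprotein (0.856), the glycosyltransferase gene Galnt18 (0.873) and Rasgrp3, an activator of Ras (0.953). Olr1 stood at 77.3, 130 and 74.3 FPKM in the control and at 11.1, 36.3 and 78.2 in the preeclampsia libraries. Galnt18 stood at 14.9, 16.6 and 6.73 FPKM and at 4.60, 5.44 and 15.1, and thus shared with Ankrd1 its 3 high libraries. In all 3 neighbours preeclampsia library 3 was above preeclampsia libraries 1 and 2.

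**Figure D3:**
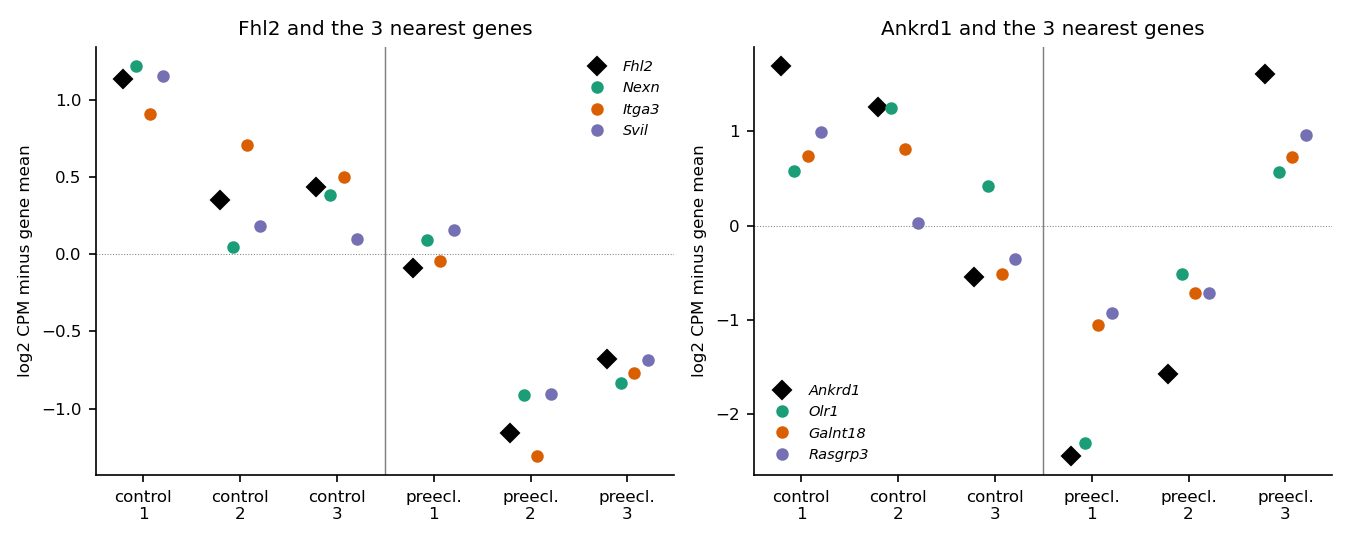
Log2 CPM of each library minus the gene's mean over the 6 libraries, for Fhl2 (left) and Ankrd1 (right), black diamonds, and for the 3 genes nearest to each, coloured circles. Fhl2 and its neighbours are highest in control library 1, while Ankrd1 is high in control libraries 1 and 2 and preeclampsia library 3.

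Among other YAP and TEAD target genes, taken from a list of 19 that holds none of the 4 targets above, 16 had a fitted fold change below 1 and 3 above, with a median log2 value of -0.25 (all genes: 0.01). This list, and those of binding and Hippo genes below, were written with earlier results of these data known. The background shares beside them are therefore context and not a test. edgeR called 0 of the 19, 3 were lower at an unadjusted p under 0.05 (background 5.06%), and 4 were lower without overlap in CPM (background 8.3%). DESeq2 called 2, both lower (background 1.48%). Without control library 2 the median was -0.13, with 12 of the 19 below 1. It was -0.39 without control library 3 and preeclampsia library 1 together, a pair set by hand. The matricellular genes Ccn1 and Ccn2 had the highest FPKM of the list, although their implied lengths were only 356 and 825 bases. Their mean counts of 30429 and 58438 were below that of Ccdc80 (69444). Control libraries held 2170, 2282 and 1824 FPKM of Ccn2, and preeclampsia libraries 572.5, 622 and 801 (log2 fold change -1.63, SE 0.20, edgeR adjusted p = 0.228, DESeq2 6.99e-11). Ccn1 was at 1936, 1721 and 1510 FPKM and at 1439, 1662 and 1591, with overlapping groups (-0.12, SE 0.16, edgeR adjusted p = 0.873). That the 2 genes differ in their response was not tested.

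Tgfb2, a secreted TGF-beta ligand, had control values of 385, 241 and 145 FPKM, and stood at 45.5, 76.7 and 94.7 in the preeclampsia libraries, without overlap. Its log2 fold change of -1.82 (SE 0.45) was not called by edgeR (adjusted p = 0.438) and was called by DESeq2 (0.00627). Ptpn14, a phosphatase that binds YAP and is also a YAP target, was at 14.2 ± 2.72 FPKM in control and 9.38 ± 1.08 in preeclampsia libraries, again without overlap (-0.59, SE 0.18, edgeR adjusted p = 0.470).

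Of 12 genes whose products bind YAP, TAZ or TEAD, 8 had a fitted fold change below 1 and 4 above, with a median log2 value of -0.07. This lean rested on single libraries: without control library 1 there were 6 of 12 below 1 and the median was 0.01, while it was between -0.14 and -0.11 without control library 3, preeclampsia library 1 or preeclampsia library 2. edgeR called 0, and 2 were lower at an unadjusted p under 0.05 (background 5.06%), among them Ptpn14. Ptpn14 is on this list and on that of the other targets, and is counted in both. Without overlap, 4 were lower (background 8.3%) and 0 higher (7.25%). DESeq2 called 1, Amot, which was lower (background 1.48%). Amot, the founding angiomotin and a scaffold that binds YAP, was at 187, 192 and 162 FPKM in the control libraries. In the preeclampsia libraries it was at 110.5, 125 and 113 FPKM, all below the control range (log2 fold change -0.62, SE 0.14, edgeR adjusted p = 0.397, DESeq2 0.0099). The 14-3-3 genes Ywhaz and Ywhae, whose proteins bind phosphorylated YAP, had the highest FPKM of the list, at 1739 ± 79.3 and 218 ± 10.2 FPKM in control and 1539 ± 158 and 225 ± 40.0 FPKM in preeclampsia libraries. Their edgeR adjusted p values were 0.768 and 0.934. The implied length of Ywhaz was 436 bases, and its place on the FPKM scale rests on it.

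Of 17 genes of the Hippo kinase cascade and its upstream scaffolds, 12 had a fitted fold change below 1 and 5 above, with a median log2 value of -0.14. The median was -0.03 without preeclampsia library 2, and -0.09 without control library 1 or without control library 2. edgeR called 0, and at an unadjusted p under 0.05 there were 1 lower (background 5.06%) and 2 higher (4.13%). DESeq2 called 1 gene, Dchs1 (background 2.65% in either direction). Dchs1, a giant cadherin that binds the receptor-like cadherin FAT4, had control values of 4.64, 5.33 and 3.68 FPKM, and stood at 9.39, 15.3 and 16.5 in the preeclampsia libraries, without overlap (log2 fold change 1.62, SE 0.27, edgeR adjusted p = 0.315, DESeq2 2.36e-05). Fat4 itself, named after its values were seen, was at 5.85, 4.10 and 6.43 FPKM and at 4.83, 1.77 and 2.30, with overlapping groups (-0.88, SE 0.38, edgeR adjusted p = 0.562), or -1.38 without preeclampsia library 1.

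Wwc2, a relative of the LATS activator KIBRA, had control values of 358, 354 and 309 FPKM, and stood at 269, 255 and 279 in the preeclampsia libraries, without overlap (log2 fold change -0.33, SE 0.12, edgeR adjusted p = 0.486). Rassf1, a scaffold that binds the Hippo kinases, was at 24.4, 23.0 and 32.5 FPKM and at 30.8, 35.9 and 39.8, with overlap (0.44, SE 0.18, edgeR adjusted p = 0.532). Map4k4, a kinase that can act on LATS in parallel to the Hippo kinases, was at 101 ± 12.9 and 108 ± 16.6 FPKM (0.12, SE 0.17, edgeR adjusted p = 0.882), and its log2 fold change ran from 0.02 without preeclampsia library 2 to 0.26 without preeclampsia library 1.

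**Figure D4:**
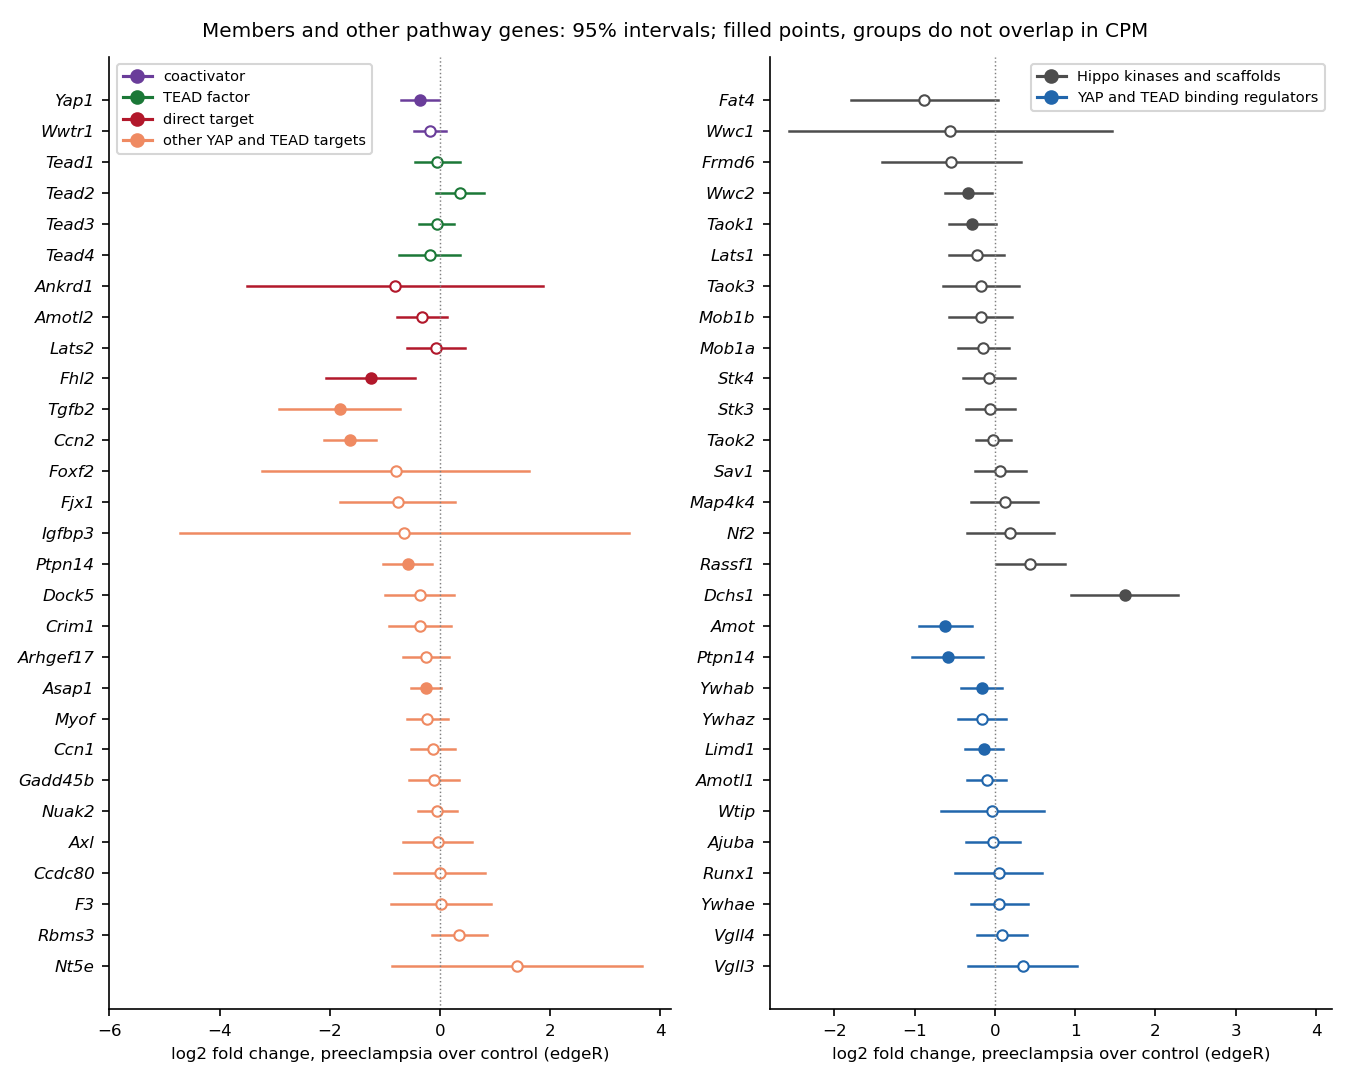
Log2 fold change of preeclampsia over control by edgeR (horizontal axis, linear) with 95% intervals, for the 10 members and 19 other targets on the left and for 17 Hippo and 12 binding genes on the right; filled points mark groups that do not overlap in CPM. Fhl2, Ccn2 and Tgfb2 lie furthest to the left among the filled points, and Dchs1 is the 1 filled point above 0.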

How the data were processed

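Messenger RNA of 3 control and 3 preeclampsia libraries was captured on oligo(dT) beads, and the adapters carried molecular identifiers, per the labels' protocols. The sources used here do not say whether reads were collapsed by them, nor which genome build the table uses. Tools named in the submitters' processing notes, with no role given, are StringTie 2.1.6, HISAT2 2.2.1, FastQC and cutadapt 1.9. For each gene the authors deposited counts (whole numbers) and FPKM values of all 6 libraries. Positions are as deposited, and chromosome numbers come from RefSeq genes of the same symbol.

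After filterByExpr and TMM scaling, counts were fitted with edgeR 4.0.16 (R 4.3.3, quasi-likelihood test), with no term but the group, and p-values were adjusted by Benjamini-Hochberg over 15776 genes. Alternatives were DESeq2 1.42.0 (independent filtering set for 0.05), other scalings and filters, limma 3.58.1 on log2(FPKM + 1) and log2(FPKM + 0.1), the replicate number as a block, and libraries left out. Scripts were tested on simulated data. The median SE of a log2 fold change was 0.263, with 3 libraries per group. Members and lists were chosen with earlier results of these data known. Named beside the members were, per list, up to 5 genes at an unadjusted p under 0.05 and the 2 with the highest mean FPKM, and the 3 genes nearest in pattern to each of 2 members.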

Additional observations from a re-analysis of the deposited data

How the results depend on the processing

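Of 150 refits of the 10 members, 142 kept their direction and their side of the threshold. Direction reversed in 7: Tead1 without control library 1 (0.10) or preeclampsia library 2 (0.031), Tead3 without control library 2 (0.001) or preeclampsia library 3 (0.027), and Lats2 without control library 3 (0.020), without preeclampsia library 1 (0.122) or without both (0.213). The remaining 1 was Fhl2 under DESeq2 (-1.25, adjusted p = 0.028). Among 18 other named genes, Ccn1 and Rasgrp3 reversed without control library 1 (0.007 and 0.190), Ywhae (-0.061) and Rasgrp3 (0.017) without preeclampsia library 1, and Ywhae (-0.118) without that library and control library 3. DESeq2 called 368 genes (2.65%), 1 member, 1 Hippo gene, 1 binding gene and 2 other targets, where edgeR called 0 of each. limma without a filter called 1 gene, which has only a locus name. With 1 library left out, edgeR called between 0 and 2 genes (Tgfbr3 without control library 3, Enpp3 and Pitx1 without preeclampsia library 1) and 0 members. Without control library 3 and preeclampsia library 1 together it called 3 genes (Angptl4, Igfbp3 and Tgfbr3), 1 of them, Igfbp3, on the list of other targets. This pair was set by hand, not by a rule. Igfbp3 was at 3.10 FPKM in control library 3 and at 196 in preeclampsia library 1, against the direction of its call. With all libraries its log2 fold change was -0.65 (edgeR adjusted p = 0.936), so its call rests on leaving out this pair. Over the single libraries left out, the values ran from -0.128 to 0.10 for Tead1, -0.138 to 0.027 for Tead3, -0.186 to 0.122 for Lats2, -0.221 to 0.007 for Ccn1, -0.061 to 0.144 for Ywhae and -1.155 to 0.190 for Rasgrp3. Without a change of sign they ran from -0.311 to -0.021 for Tead4, 0.221 to 0.518 for Tead2, -0.259 to -0.123 for Wwtr1, -3.019 to -0.309 for Ankrd1, -1.382 to -0.627 for Fat4, 0.019 to 0.263 for Map4k4, -1.937 to -0.671 for Olr1, -1.326 to -0.280 for Galnt18, -1.509 to -0.701 for Nexn and -1.355 to -0.544 for Svil. The causes were not tested. Same-numbered libraries did not deviate together (r = 0.048, 0.041 and 0.010), and control library 3 was closer to preeclampsia library 2 (0.035). With the replicate number as a block, edgeR called 0 genes and 0 members, with 1196 genes at an unadjusted p under 0.05 in place of 1450, and the log2 fold change was -1.28 for Fhl2 (adjusted p = 0.333) and -2.005 for Ankrd1 (adjusted p = 0.86). Intervals rest on 3 libraries per group.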

Other observations

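Some YAP and TEAD target genes differed more between libraries of 1 group than between the groups. Igfbp3, which encodes an insulin-like growth factor binding protein, stood at 129, 185 and 3.10 FPKM in the control libraries and at 196, 5.92 and 6.93 FPKM in the preeclampsia libraries. Control libraries 1 and 2 and preeclampsia library 1 were high, and the other 3 were low. Ankrd1 was also high in control libraries 1 and 2, but it was low in preeclampsia library 1, where Igfbp3 was highest, and high in preeclampsia library 3, where Igfbp3 was low. Nt5e, which encodes the ectonucleotidase CD73, stood at 19.2, 6.02 and 43.8 FPKM in the control and at 11.9, 104 and 58.4 FPKM in the preeclampsia libraries, and was low where Igfbp3 was high. Foxf2, a forkhead factor of mesenchyme, stood at 4.46, 1.37 and 0.490 FPKM and at 0.980, 0.280 and 2.39 FPKM. These genes were named after their values were seen, and the pattern was not tested.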
